A study of Mus musculus with 12 samples.

Results

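*Sema7a*, its receptor *Plxnc1* and 8 related genes of the semaphorin pathway were followed in the RNA-seq counts of cultured mouse female germline stem cells (FGSCs) with altered *Stella* (listed as *Dppa3*). The 10 genes were the semaphorins *Sema7a*, *Sema4a*, *Sema4b*, *Sema4c* and *Sema4d*, the plexins *Plxnc1*, *Plxnb2* and *Plxnd1*, and the neuropilins *Nrp1* and *Nrp2*. They were 10 of the 31 semaphorin, plexin and neuropilin genes in the deposited table, held 26 of the family's 69 transcripts, and were found by matching the RefSeq identifiers of the 41388 listed transcripts to gene symbols. The genes were selected on earlier results from these same counts, among them the levels of *Sema7a* in the 4 groups. The values of the 10 genes are therefore given as a description, without a p-value. Tests are read for other genes only, and a call stated for any of the 10 genes is not support for a difference.

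Semaphorins are secreted or membrane-bound proteins that act on neighbouring cells through plexins, whose cytoplasmic part switches off small GTPases and so changes adhesion and the cytoskeleton. Class 3 semaphorins are secreted and mostly need a neuropilin beside the plexin, whereas class 4 members cross the membrane and bind B-type plexins. Sema7a is held to the membrane by a GPI anchor, and signals through Plxnc1 and through integrins that contain the beta 1 chain. In the reproductive axis semaphorins are best known for guiding the neurons that secrete gonadotropin-releasing hormone.

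Libraries were made from 4 groups with 3 libraries each. KO was an FGSC line in which *Stella* was knocked out with CRISPR/Cas9 and lentivirally delivered sgRNAs, and was 1 randomly chosen clone, so an effect of the knockout and one of the clone cannot be told apart. KO-con was its control, which the labels name only as such. Over was a line that overexpressed *Stella* from a lentiviral vector after puromycin selection, and Over-con carried the empty vector. All cells were of strain C57BL/6, were at more than 20 passages and were grown on inactivated STO mouse fibroblast feeders, and the sources used here do not say whether feeder cells were removed before RNA extraction. The labels do not say whether the 3 libraries of a group came from separate cultures, so p-values measure the spread between these libraries, which may be technical.

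Between 5611846 and 12866545 reads per library were counted, so that 3 counts, taken as the smallest amount shown, correspond to 0.233 to 0.535 CPM (the counts of a transcript relative to all those of its library), a limit that covers counting error only. *Stella* had 0 counts in each KO, KO-con and Over-con library and 347, 371 and 285 counts in Over, so the counts check the label of Over and cannot check the knockout. Of the germ cell markers, *Ddx4* and *Tfap2c* were at 0 and *Dazl*, *Nanos3* and *Pou5f1* at no more than 0.121 CPM in any library, all of them genes with 2 listed transcripts, while *Ifitm3* (Fragilis) lay between 76.8 and 164 CPM and *Prdm1* (Blimp1) between 0.230 and 1.97 CPM. Among markers of other cell types, the mast cell genes *Fcer1a* and *Tpsab1* and the macrophage genes *C1qa* and *C1qb*, with 1 listed transcript each, were at 0. So were *Ms4a2*, *Adgre1*, *Rbfox3*, *Snap25* and *Pdgfrb*, which have 2 to 6. Other markers of the same cell types were present, with the mast cell protease *Cpa3* at 363 to 1214 CPM, the macrophage gene *Cd68* at 25.6 to 44.6, *Cd14* at 3.34 to 11.4, the neuronal tubulin *Tubb3* at 5.67 to 12.3 and the fibroblast collagen *Col1a2* at 441 to 703. Fewer cells of a type and less RNA per cell cannot be told apart in such bulk samples.

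*Sema7a* is annotated at chr9:57787920-57810671 (plus strand) in mm9, with 14 exons and a transcript of 3296 bases. *Plxnc1* is annotated at chr10:94253617-94407212 (minus strand), with 31 exons and a transcript of 7039 bases. The 250 bases before the RefSeq start of each gene are shown because the pair is the subject of the comparison between ligand and receptor. They come from the RefSeq promoter table of GRCm38.p6, run 5′ to 3′ on the strand of the gene at chr9:57939862-57940111 (plus) and chr10:94944846-94945095 (minus), and carry GC boxes (GGGCGG or its reverse complement) in capitals:
Sema7a promoter: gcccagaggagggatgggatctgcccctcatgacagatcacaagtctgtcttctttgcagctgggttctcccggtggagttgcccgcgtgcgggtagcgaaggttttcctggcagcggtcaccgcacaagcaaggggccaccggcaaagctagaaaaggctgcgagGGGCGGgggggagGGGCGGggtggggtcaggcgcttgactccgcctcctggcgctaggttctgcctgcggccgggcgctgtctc
Plxnc1 promoter: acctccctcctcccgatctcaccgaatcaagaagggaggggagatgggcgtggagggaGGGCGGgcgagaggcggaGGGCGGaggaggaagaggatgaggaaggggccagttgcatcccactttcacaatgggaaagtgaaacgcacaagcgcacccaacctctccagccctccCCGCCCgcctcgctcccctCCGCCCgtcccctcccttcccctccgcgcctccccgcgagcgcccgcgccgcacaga

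On mm9 the full *Plxnc1* window of 300 bases lies at 94407430 to 94407729, wholly upstream of the annotated start of that gene at 94407212. The *Sema7a* window, at 57787669 to 57787968, holds the annotated start at 57787920. In these full windows, which reach 50 bases past the RefSeq start, *Sema7a* had 2 GC boxes and *Plxnc1* had 4. This motif was found on either strand in 35.9% of 27025 promoters of that length. The *Sema7a* window held 23 CpG sites at a GC content of 67.3%, more CpG sites than 78.4% of the promoters, and the *Plxnc1* window held 30 at 69.0%, more than 88.5% of them. The median promoter held 7. Neither window held, on either strand, the TATA box TATAAA (in 14.2% of promoters), the E-box CACGTG (7.24% of promoters), the GATA motif AGATAA (11.4% of promoters) or the AP-1 motif TGACTCA (5.17% of promoters). A match is a description of the letters and not of a bound factor.

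The study also designed primers for *Sema7a* for RT-qPCR. Their product of 131 bases is shown, since it marks the stretch of the transcript read by a second assay, and has the primer sites in capitals:
Sema7a RT-qPCR product: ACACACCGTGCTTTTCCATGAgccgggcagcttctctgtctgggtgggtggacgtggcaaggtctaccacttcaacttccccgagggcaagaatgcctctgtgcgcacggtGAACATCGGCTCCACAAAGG

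The product spans bases 251 to 381 of the annotated transcript, in exons 2 and 3, inside the coding sequence that runs from base 39 to 2033. On mm9 its ends lie at 57801377 and 57801998 of chromosome 9. The RNA-seq counts cover the whole transcript, and no RT-qPCR values were used here.

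Of the 10 genes, 3 could be measured. *Sema7a*, *Plxnc1* and *Plxnd1* have 1 listed transcript each and together held 79497 counts over the 12 libraries, whereas the other 7 have 2 to 6 transcripts and together held 225. The same split ran through the family, in which 15 genes with 1 transcript held 99.3% of the counts and 16 genes with 2 or more held 1337 counts, and through the whole table, in which genes with 1 transcript held 96.3% of all counts. How reads shared by several transcripts were treated is not given in the sources used here, so low expression and the counting cannot be told apart for the 7 genes. The plot of counts by number of transcripts shows the 10 genes within the family.

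**Figure D1:**
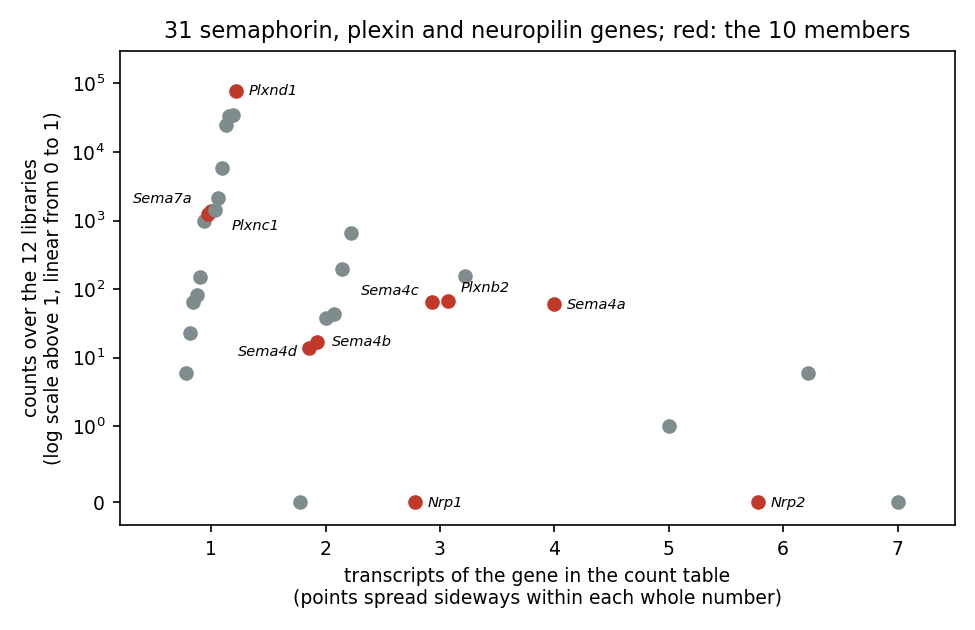
Counts over the 12 libraries (vertical axis, log scale above 1 and linear from 0 to 1) against the number of listed transcripts (horizontal axis, points spread sideways within each number) for 31 semaphorin, plexin and neuropilin genes, with the 10 genes followed here in red and named. *Plxnd1*, *Sema7a* and *Plxnc1*, with 1 transcript, hold 1256 counts or more, and the 7 others lie at 68 counts or fewer.

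*Sema4a*, *Sema4b*, *Sema4c* and *Sema4d* are membrane-bound ligands of B-type plexins, and *Sema4d* and *Sema4a* also act in the immune system. Over its 4 transcripts *Sema4a* had 3, 4 and 6 counts in KO-con against 1, 1 and 3 in KO, and 8, 4 and 6 in Over-con against 13, 5 and 6 in Over. *Sema4c* had between 0 and 9 counts per library over its 3 transcripts, *Sema4b* between 0 and 5 and *Sema4d* between 0 and 2. *Plxnb2*, a receptor for class 4 semaphorins, had 2, 2 and 6 counts in KO-con against 13, 6 and 10 in KO, and 2, 1 and 5 in Over-con against 15, 2 and 4 in Over, all on 1 of its 3 transcripts. None of these 5 genes had enough counts to be tested in any comparison. *Nrp1*, with 3 transcripts, and *Nrp2*, with 6, the co-receptors of class 3 semaphorins, had 0 counts in all 12 libraries.

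Levels of the 3 measurable genes were scaled to CPM over all 12 libraries. *Sema7a* stood at 10.1, 10.8 and 11.8 CPM in the KO libraries and at 6.52, 7.70 and 5.69 CPM in KO-con. It stood at 9.90, 9.34 and 8.66 CPM in Over and at 16.7, 14.3 and 15.8 CPM in Over-con. The 4 groups did not overlap, and ran from KO-con (6.64 ± 1.01 CPM, SD, n = 3) through Over (9.30 ± 0.621) and KO (10.9 ± 0.833) to Over-con (15.6 ± 1.24). The gap between the control groups, 2.35 times, was wider than that between either *Stella* line and its own control. These levels rest on 47 to 163 reads per library, a depth at which counting alone gives a coefficient of variation of 8.59% to 12.4%, against an observed 6.68% to 15.2% within groups.

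*Plxnc1*, the plexin that binds Sema7a, stood at 13.3, 10.6 and 13.7 CPM in the KO libraries and at 14.6, 13.9 and 12.4 CPM in KO-con. It stood at 11.1, 12.2 and 12.2 CPM in Over and at 7.17, 7.92 and 8.25 CPM in Over-con. Over-con (7.78 ± 0.550 CPM, SD, n = 3) lay below the other groups without overlap, while KO (12.5 ± 1.69) overlapped with both Over (11.8 ± 0.623) and KO-con (13.6 ± 1.14). Counts ranged from 45 to 159 per library, and the observed variation within groups (5.27% to 13.5%) was again close to that from counting alone (8.68% to 12.2%).

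*Plxnd1*, a receptor for secreted class 3 semaphorins and for Sema3e without a neuropilin, was far more deeply counted, with 2851 to 8537 reads per library. It stood at 650.5, 737.5 and 774.7 CPM in the KO libraries and at 739.8, 728.9 and 653.9 CPM in KO-con. It stood at 584.8, 575.4 and 540.0 CPM in Over and at 590.4, 501.9 and 580.8 CPM in Over-con. Each *Stella* line overlapped with its own control, and both groups of the knockout pair lay above both groups of the overexpression pair. Counting alone accounts for a variation of 1.15% to 1.43% here, against an observed 4.17% to 8.84%.

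**Figure D2:**
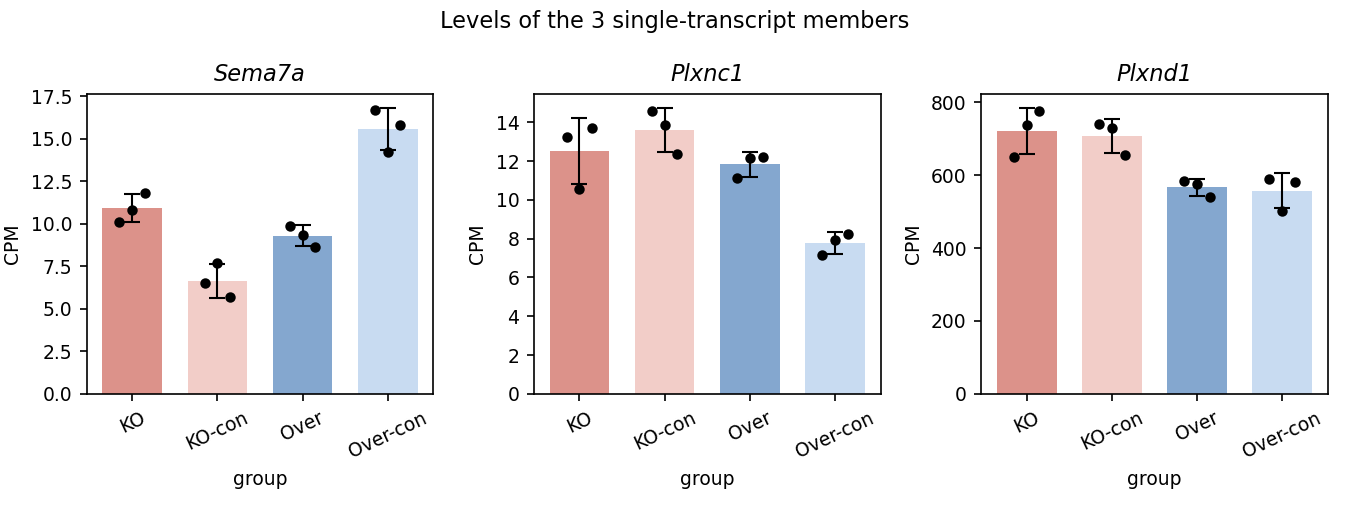
Levels in CPM (vertical axes, from 0) of *Sema7a*, *Plxnc1* and *Plxnd1* in the 4 groups (horizontal axes), with points for libraries, bars for means and error bars for the SD (n = 3). *Sema7a* runs from 6.64 CPM in KO-con to 15.6 in Over-con without overlap between groups, *Plxnc1* is lowest in Over-con (7.78), and *Plxnd1* is higher in KO and KO-con than in Over and Over-con.

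Per kilobase of transcript, *Plxnd1* had the highest level of the 15 family genes with 1 transcript, 92.4 CPM per kb over the 12 libraries, and it was followed by the secreted semaphorins *Sema3d* (43.3) and *Sema3c* (38.6) and by *Plxna1* (32.1). *Plxna2*, at 4.53 CPM per kb, and *Sema7a*, at 3.22, came next, ahead of *Plxnb1* (2.11), *Sema4g* (1.86), *Plxnc1* (1.62) and *Sema5a* (1.09). *Sema7a* was thus at a higher level per kilobase than *Plxnc1* on average, and its lowest group mean (2.01, KO-con) was above the highest of *Plxnc1* (1.93, also KO-con). These KO-con means lay close together, and the order was not the same in every KO-con library. *Sema3e*, *Plxnb3*, *Plxna4*, *Sema3g* and *Sema5b* were at 0.184 CPM per kb or less.

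The first comparison asked what changed when *Stella* was knocked out, with 9457 transcripts tested. *Sema7a* was 1.65 times higher in KO than in KO-con (log2 fold change 0.72, standard error 0.17), and *Plxnc1* overlapped between the groups (log2 fold change -0.12, standard error 0.15), as did *Plxnd1* (0.03, standard error 0.08). Calls at an adjusted p under 0.05 (edgeR's quasi-likelihood test, Benjamini-Hochberg over all transcripts) were made for 11.8% of all transcripts and for 1 of these 3 genes, *Sema7a*, from which nothing is read because the contrast was used in choosing the genes. With Over-con in place of KO-con the direction turned for both genes of the pair, to -0.52 for *Sema7a* and 0.68 for *Plxnc1*. The call of *Sema7a* was lost without KO-con replicate 1 or replicate 3, where the log2 fold change was 0.70 and 0.63.

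The sums of some marker lists of other cell types were higher in KO, as was *Sema7a*, while single markers went either way. The 10 mast cell markers, 7 of them detected, summed to 371 to 430 CPM in KO-con and to 1148 to 1228 in KO, almost all of it from *Cpa3*. Without *Cpa3* they summed to 5.17 to 7.88 CPM in KO-con and to 9.71 to 13.9 in KO. Among them *Hdc* and *Cma1* were 2.45 and 3.39 times higher in KO without overlap. The 8 macrophage markers, 5 of them detected, summed to 33.9 to 41.3 CPM in KO-con and to 43.0 to 51.5 in KO, mostly from *Cd68* (mean 28.5 and 39.4 CPM). *Csf1r*, at 6 to 18 counts per library, was 1.60 times higher in KO without overlap, while *Cd14* was on the other side (6.54 and 4.59 CPM, without overlap). The 8 germ cell markers, 6 of them detected, summed to 113 to 138 CPM in KO-con and to 77.1 to 119 in KO, and the 8 fibroblast markers, 7 of them detected, to 986 to 1167 and 867 to 1248 CPM. Without overlap, *Prdm1* (5.92 times), the *Dcn* transcripts (1.34 and 1.38 times) and a *Pdgfra* transcript (2.93 times) were lower in KO, and *Thy1* was 1.24 times higher. *Prdm1* had only 2 to 5 counts per KO library. *Ifitm3*, the collagens *Col1a1*, *Col1a2* and *Col3a1* and the mast cell marker *Gata2* overlapped between the groups. The 5 neuronal markers, 3 of them detected, summed to 8.72 to 11.3 CPM in KO-con and to 11.3 to 14.7 in KO. The part of such cells in the *Sema7a* difference was not tested.

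The second comparison asked what changed when *Stella* was overexpressed, with 9401 transcripts tested. *Sema7a* was 1.68 times lower in Over than in Over-con (log2 fold change -0.74, standard error 0.13), and *Plxnc1* was 1.52 times higher (log2 fold change 0.61, standard error 0.15), so that ligand and receptor lay on opposite sides of their control. *Plxnd1* was at 0.03 (standard error 0.07). Calls were made for 1.65% of all transcripts, and for *Sema7a* and *Plxnc1* among the 3 genes, from which again nothing is read. Against KO-con the direction turned for both, to 0.48 for *Sema7a* and -0.20 for *Plxnc1*, and *Plxnd1* was at -0.32. Without Over replicate 2, Over replicate 3 or Over-con replicate 1 the call of *Sema7a* was lost at log2 fold changes of -0.75, -0.70 and -0.69, and that of *Plxnc1* was kept in 1 of 6 fits that each left out a library, the one without Over-con replicate 3 (0.67).

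In this pair *Cpa3* was lower in Over without overlap (636 to 662 against 750 to 861 CPM), like *Sema7a*, and carried the sum of the mast cell markers (646 to 668 CPM in Over and 759 to 863 CPM in Over-con). *Hdc* and *Cma1*, also mast cell markers, were 1.84 and 1.74 times higher in Over without overlap, *Cma1* on only 2 to 8 counts per library. Without *Cpa3* the sums overlapped (6.09 to 10.5 and 2.11 to 9.22 CPM). The fibroblast markers summed to 1232 to 1288 CPM in Over and 1388 to 1574 CPM in Over-con. Macrophage markers summed to 48.4 to 51.1 CPM in Over and 35.7 to 41.6 CPM in Over-con, higher in Over like *Plxnc1*, and without *Cd68* the sums overlapped (means of 9.30 and 10.9 CPM). Germ cell markers, whose list holds *Stella* itself, overlapped at 147 to 160 and 151 to 165 CPM, and without *Stella* they were lower in Over without overlap, at 116 to 131 against 151 to 165 CPM, nearly all from *Ifitm3*. Neuronal markers overlapped at 7.70 to 10.3 and 9.74 to 10.5 CPM. Their part in the differences was not tested.

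The control groups themselves differed, which bears on both comparisons. *Sema7a* was 2.35 times lower in KO-con than in Over-con (log2 fold change -1.22, standard error 0.16), *Plxnc1* was 1.75 times higher (0.82, standard error 0.16), and *Plxnd1* was 1.27 times higher (0.35, standard error 0.08). Calls were made for 16.3% of 9321 transcripts and for all 3 genes, with nothing read from the count. The sums of mast cell and fibroblast markers given above were lower in KO-con than in Over-con without overlap, as was *Sema7a*, and those of the germ cell markers were also lower. The germ cell sum was nearly all *Ifitm3*, and *Prdm1* went the other way, 2.74 times higher in KO-con without overlap. The mast cell sum was again *Cpa3*, without which the control groups overlapped, and *Cma1* was 3.21 times higher in KO-con. In the Over-con libraries *Prdm1* had only 3 to 8 counts and *Cma1* 2 to 4. The lines were made by different routes, and vector, line and culture cannot be told apart in this difference.

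In each library the counts of *Sema7a* were set against those of *Plxnc1*, which needs no scaling. The ratio was 0.765, 1.02 and 0.861 in KO and 0.447, 0.555 and 0.461 in KO-con. It was 0.892, 0.767 and 0.711 in Over and 2.33, 1.80 and 1.92 in Over-con. KO and Over overlapped, with means of 0.884 and 0.790, whereas KO-con (0.487) lay below and Over-con (2.02) above both. The lower level of *Sema7a* thus went with the higher level of *Plxnc1* in Over against Over-con and in KO-con against Over-con, and in KO against KO-con *Sema7a* differed without a difference of *Plxnc1* beyond the spread.

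**Figure D3:**
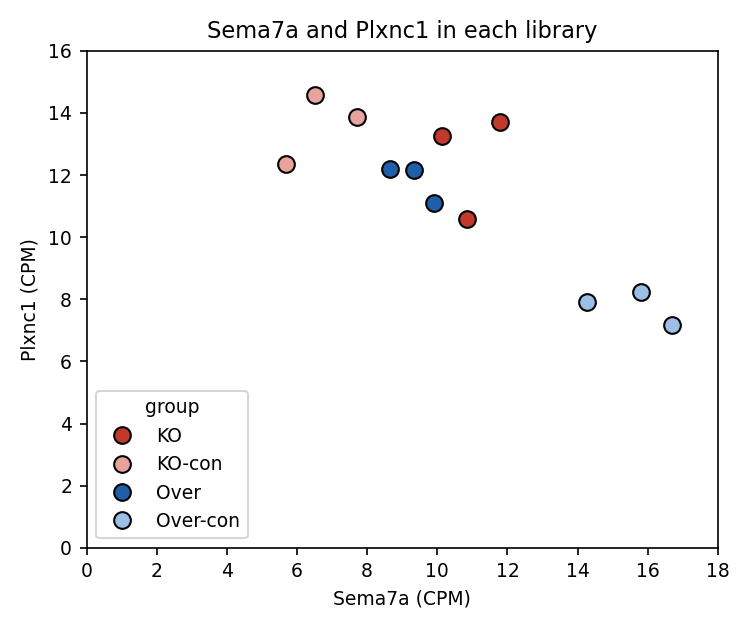
Level of *Plxnc1* against level of *Sema7a* (both axes in CPM, from 0), with 1 point per library coloured by group. The Over-con libraries lie at the lower right (15.6 and 7.78 CPM on average), the KO-con libraries at the upper left (6.64 and 13.6), and KO and Over between them.

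The difference between the knockout effect and the overexpression effect was 1.46 on the log2 scale for *Sema7a* (standard error 0.20), -0.73 for *Plxnc1* (standard error 0.20) and 0.00 for *Plxnd1* (standard error 0.11). Calls were made for 8.64% of 9903 transcripts in the fit of this difference, and for *Sema7a* and *Plxnc1* among the 3 genes, from which again nothing is read. The *Sema7a* difference kept its sign in each of the 12 fits that left out 1 library, and so did that of *Plxnc1*. In these fits it lay between 1.37 and 1.57 for *Sema7a* and between -0.81 and -0.64 for *Plxnc1*. These are descriptions of a difference in genes chosen on these data, not support for it.

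The rest of the family was tested with the same fits. Of the 11 other semaphorin and plexin transcripts tested in KO against KO-con, 0 were called by edgeR, DESeq2 or limma-voom, with 3, 2 and 2 at an unadjusted p under 0.05, where edgeR called 11.8% of all transcripts. In Over against Over-con likewise 0 of 11 were called by each tool, with 3 at an unadjusted p under 0.05 in each and 1.65% of all transcripts called by edgeR. The median log2 fold change of the 11 was 0.09 in KO against a median of 0.01 over all transcripts, and -0.21 in Over against 0.00. With the further requirement of an absolute log2 fold change over 1, the family as a whole had 0 such differentially expressed genes (DEGs) in KO and 0 in Over by each of the 3 tools, where 1.7% and 0.17% of all transcripts were DEGs in the edgeR fits and 4 and 5 of the 14 family transcripts were at an unadjusted p under 0.05. Without Over-con replicate 3, where 7.49% of all transcripts were called, 6 family transcripts were called in Over, the further ones being *Plxna1*, *Plxna2*, *Sema3c* and *Sema3d*, all lower, with log2 fold changes of -0.20, -0.32, -0.27 and -0.39.

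*Plxna2* and *Sema3d* differed between the control groups, 2 calls among the 11 other family transcripts tested, where 16.3% of all transcripts were called. *Plxna2*, a receptor used by class 3 and class 6 semaphorins, stood at 41.4 ± 1.15 CPM in KO-con and 61.0 ± 4.48 in Over-con (SD, n = 3; log2 fold change -0.55, standard error 0.09, adjusted p = 0.000237, edgeR's quasi-likelihood test, Benjamini-Hochberg). *Sema3d*, a secreted semaphorin, stood at 242 ± 10.8 and 354 ± 53.5 CPM (-0.54, standard error 0.09, adjusted p = 0.000218, the same test). Both kept their call in each of the 6 fits that left out a library, and neither group overlapped with the other. In KO *Plxna2* was at 47.0 ± 2.49 CPM and in Over at 50.5 ± 3.52, log2 fold changes of 0.19 (adjusted p = 0.189, edgeR) and -0.26 (adjusted p = 0.181, edgeR) from the own controls. *Plxna3* missed the threshold between the controls (adjusted p = 0.0502, edgeR) and was called by limma-voom (adjusted p = 0.0416), and in edgeR fits with library totals, with counts summed per gene and with either other filter.

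The effects on *Plxna2* and *Plxna3* differed between the knockout and the overexpression line, 2 calls among 12 other family transcripts, where 8.64% of all transcripts were called. *Plxna3*, like *Plxna2* a partner of neuropilins in class 3 signalling, has 2 listed transcripts, of which 1 carried all 669 counts, 23 to 82 per library. The limit from unknown handling of shared reads, given above for the genes with several transcripts, holds for *Plxna3* too. It stood at 4.03 ± 1.29 CPM in KO-con against 6.57 ± 0.528 in KO, and 6.64 ± 0.260 in Over-con against 5.07 ± 1.27 in Over. The difference between effects was 1.04 for *Plxna3* (standard error 0.31, adjusted p = 0.0420, edgeR's quasi-likelihood test) and 0.45 for *Plxna2* (standard error 0.12, adjusted p = 0.0224, the same test). Of the 12 fits that each left out a library, 3 kept the call of *Plxna3* and 6 that of *Plxna2*. The lost calls were those without KO replicate 1 or 2, KO-con replicate 1 or 3, Over replicate 1 or 3 and each Over-con replicate for *Plxna3* (0.85 to 1.07), and those without KO replicate 2, KO-con replicate 2 or 3, Over replicate 3 and Over-con replicate 1 or 2 for *Plxna2* (0.38 to 0.45).

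The other transcripts tested had no call in any comparison as fitted. *Sema3c*, a secreted semaphorin, stood at 232 ± 12.5 CPM in KO-con and 197 ± 26.3 in Over-con, with a log2 fold change of 0.24 between the controls (adjusted p = 0.0624, edgeR), and was called there without a filter (adjusted p = 0.0349). *Sema5a* stood at 14.4 ± 0.227 CPM in the KO libraries and 10.9 ± 1.35 in KO-con, without overlap (log2 fold change 0.40, adjusted p = 0.0815, edgeR), and was called with all 12 libraries in 1 fit (adjusted p = 0.0458). *Plxna1* was at -0.21 in Over (adjusted p = 0.149, edgeR), also without overlap, and at 0.04 in KO. *Sema4g*, *Plxnb1*, *Sema3a*, *Sema3e* and *Sema6b* had log2 fold changes between -0.10 and 0.18 in KO and between -0.75 and -0.07 in Over. *Plxnb3* passed the filter only in the fit of all 12 libraries (difference 1.55, standard error 1.04, adjusted p = 0.419, edgeR).

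**Figure D4:**
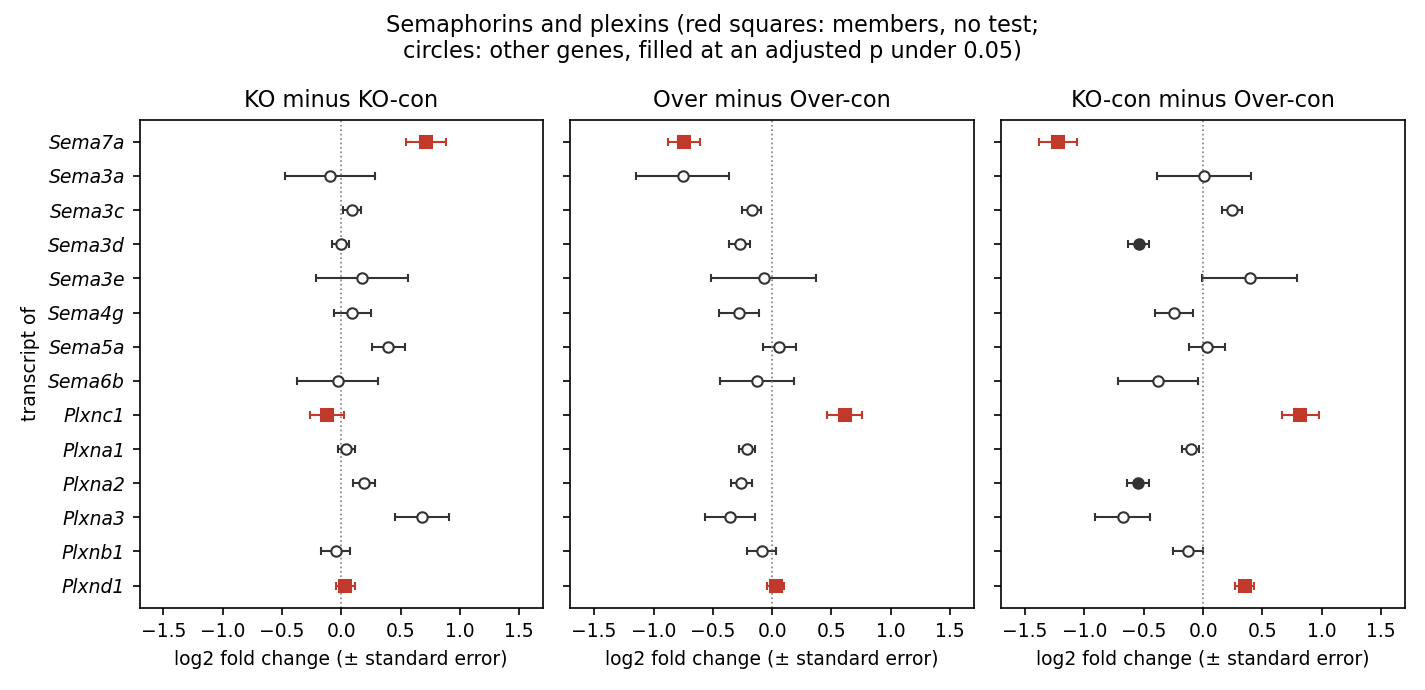
Log2 fold changes with standard errors (horizontal axes) of the 14 semaphorin and plexin transcripts tested (vertical axis) in the knockout, overexpression and control comparisons. Red squares are *Sema7a*, *Plxnc1* and *Plxnd1*, shown without a test, and filled circles mark an adjusted p under 0.05 among the others, which *Sema3d* (-0.54) and *Plxna2* (-0.55) reached between the controls.

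Receptors and co-receptors other than plexins and neuropilins were taken from a list of 13 genes. Of 6 tested in KO, 2 were called, where 11.8% of all transcripts were. *Met*, the receptor tyrosine kinase that associates with B-type plexins, was higher at 56.7 ± 4.29 against 46.3 ± 2.35 CPM (SD, n = 3) (log2 fold change 0.30, standard error 0.09, adjusted p = 0.0422, edgeR's quasi-likelihood test). *L1cam*, an adhesion molecule that takes part in Sema3a reception, was lower in KO at 57.7 ± 6.38 against 75.6 ± 6.80 CPM (-0.38, standard error 0.10, adjusted p = 0.0163, edgeR), and in Over at 98.5 ± 4.0 against 130 ± 14.1 CPM (-0.39, standard error 0.08, adjusted p = 0.0215, edgeR). *L1cam* was also the only one of 6 called in Over (1.65% of all transcripts), and between the controls, where 16.3% of all transcripts were called, *L1cam* (-0.77, adjusted p = 3.99e-06, edgeR) and *Tyrobp*, an immune signalling adaptor (-0.63, adjusted p = 0.0117, edgeR), were lower in KO-con. With KO-con as the control of Over, *L1cam* turned to 0.38. *Met* alone of 7 differed between effects (0.42, adjusted p = 0.0269, edgeR), where 8.64% of all transcripts were called.

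The integrin beta 1 chain *Itgb1*, part of the other receptor of Sema7a and named after its values were seen, was high in all groups, at 907 ± 11.4 CPM in KO-con against 962 ± 19.6 in KO, and 897 ± 73.9 in Over-con against 863 ± 25.3 in Over. Its log2 fold changes were 0.09 in KO (adjusted p = 0.420, edgeR) and -0.05 in Over (adjusted p = 0.825, edgeR). *Itga1*, its partner chain in the integrin that binds Sema7a, stood between 3.70 CPM (KO) and 5.83 CPM (Over-con) and had no call.

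Signalling proteins downstream of plexins were taken from a list of 36 genes. In KO 2 of 27 transcripts tested, of 25 genes, were called, both higher, against 11.8% of all transcripts. They were *Farp1*, a GTPase exchange factor of plexin signalling (124 ± 1.14 against 105 ± 4.13 CPM, log2 fold change 0.24, adjusted p = 0.0336, edgeR), and *Mapk3*, the ERK kinase that Sema7a activates through integrins (152 ± 11.7 against 126 ± 7.73 CPM, 0.28, adjusted p = 0.0283, edgeR). In Over 0 of 28 were called by edgeR, DESeq2 or limma-voom, with 0 at an unadjusted p under 0.05 in each. Between the controls *Farp1* (-0.35, adjusted p = 0.00323, edgeR) and *Mapk3* (-0.24, adjusted p = 0.0351, edgeR) were lower in KO-con and *Rras2*, a small GTPase, was higher (0.37, adjusted p = 0.00434, edgeR), 3 calls beside 16.3% of all transcripts. The median log2 fold change of the list was 0.09 in KO, -0.04 in Over and -0.04 between controls, where the medians over all transcripts were 0.01, 0.00 and 0.00. Of the called genes, *Farp1* kept its call in 1 of 6 fits that each left out a library in KO, *Mapk3* and *Met* in 2 and *L1cam* in 3, and *L1cam* in 2 of 6 in Over. DESeq2 did not call *Farp1* (adjusted p = 0.0517) or *Met* (adjusted p = 0.0671) in KO, and neither was called without a filter.

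Likeness to the pair was described by Pearson's r of log2 CPM over the 12 libraries, which fall into 4 groups and share their depth and scaling. The 5 transcripts most like *Sema7a* were *Plekho2* (0.95), *Dnajc1* (0.94), *Anxa5* (0.93), *Prrc2b* (0.93) and *Stx19* (0.92), and those most like *Plxnc1* were *Cdk17* (0.94), *Perp* (0.92), *Rragd* (0.91), *Klhdc2* (0.91) and *Synpo2* (0.91). *Plekho2* followed the order of *Sema7a* at 159 ± 3.18 CPM in KO-con, 176 ± 4.73 in Over, 189 ± 6.63 in KO and 206 ± 16.2 in Over-con. *Perp* was lowest in Over-con like *Plxnc1*, at 25.9 ± 2.42 CPM against 62.0 ± 1.95 in Over, 72.5 ± 6.45 in KO-con and 81.1 ± 8.49 in KO. Within the family *Plxna2* (0.86) and *Plxna3* (0.80) were most like *Sema7a*, *Plxnd1* was at -0.39, and *Plxnc1* was the least like it at -0.80. By rank, with Spearman's rho, 2 of the 5 transcripts of *Sema7a* and 0 of the 5 of *Plxnc1* remained.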

How the data were processed

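Total RNA was used for strand-specific mRNA libraries. The authors trimmed the reads and mapped them to mm9 with HISAT2. The authors deposited whole-number counts on RefSeq transcripts without normalization. The counting settings, the strand option among them, and the annotation release are not given in the sources used here. Symbols were found for 41181 of 41388 transcripts in the RefSeq table of GRCm38.p6. No column of another series was present.

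Each comparison used edgeR 4.0.16 (R 4.3.3) with TMM factors, filterByExpr, glmQLFit and glmQLFTest on the libraries of the groups compared, the difference between effects used all 12, and p-values were adjusted by Benjamini-Hochberg over all transcripts tested (called: adjusted p under 0.05). Standard errors are the log2 fold change divided by the root of F. CPM for levels were scaled by TMM over the 12 libraries, and log2 CPM used a prior count of 2. Library pairs within a group differed by more than counting noise (chi-square per degree of freedom 2.02 to 14.0), so no library was counted as a repeat. The fitting steps were tested on simulated data.

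The 10 genes and all gene lists were chosen with earlier results of these data known. Of the 10 genes, *Sema4b*, *Sema4c* and *Sema4d* were given as ranges of counts, and the others with every library value. Other family genes were named where a transcript passed a filter, the pathway genes named were the 3 per direction with the lowest adjusted p, and the 5 transcripts most like *Sema7a* and *Plxnc1* were named. Alternatives were DESeq2 1.42.0, limma-voom (limma 3.58.1), other scalings and filters, counts summed per gene, fits without each library, all 12 libraries in 1 fit, the other control group, and a block for the replicate number.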

Additional observations from a re-analysis of the deposited data

Results flagged for a closer look

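The knockout and overexpression effects, each against its own control, differed in the test of that difference for 5 semaphorin pathway genes outside the 10. They were 2 of 12 other family transcripts, 1 of 7 from the receptor list and 2 of 28 from the list of downstream proteins. Of all transcripts 8.64% were called in that fit, and all gene lists were chosen with earlier results of these data known. The difference was 1.04 on the log2 scale for *Plxna3*, 0.45 for *Plxna2*, 0.42 for *Met*, 0.39 for *Mapk3* and 0.36 for *Farp1*, with adjusted p-values from edgeR's quasi-likelihood test of 0.0420, 0.0224, 0.0269, 0.0178 and 0.0178. In each of the 5 the mean of KO was above that of KO-con and the mean of Over below that of Over-con. The 5 were picked for this difference, so nothing further is read from the shared direction. *Plxna3* has 2 listed transcripts, and its counts, all on 1 of them, may not stand for the whole gene. With the other control group *Plxna2*, *Plxna3* and *Farp1* turned in both comparisons and *Mapk3* in Over, while *Met* kept its direction. Of the 12 fits that each left out a library, the call was kept in 3 for *Plxna3*, 6 for *Plxna2*, 5 for *Met* and 8 each for *Mapk3* and *Farp1*, and *Met* and *Farp1* also lost it without a filter (edgeR). The control groups differed for *Plxna2*, *Mapk3* and *Farp1* at an adjusted p under 0.05 (edgeR), and the part of that in the difference between effects cannot be told apart from the part of *Stella*.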

How the results depend on the processing

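With the other control group, 21 of 44 log2 fold changes turned, 12 of them with a call in either fit. In KO against Over-con *Sema7a* was at -0.52, *Plxnc1* at 0.68, *Plxna2* at -0.37 and *Farp1* at -0.12, and in Over against KO-con *Sema7a* was at 0.48, *Plxnc1* at -0.20, *Plxnd1* at -0.32, *Plxna2* at 0.29, *Sema3d* at 0.27, *Farp1* at 0.24, *L1cam* at 0.38 and *Tyrobp* at 0.39. The cause was not tested. Apart from those 12, of the single-gene values under all alternatives 1337 kept their side of the threshold, 87 lost and 28 gained a call. The 1337 include the 9 values that turned without a call in either fit.

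The transcripts called numbered 1115 in KO (11.8% of those tested), 155 in Over (1.65%), 1516 between the controls (16.3%) and 856 in the difference between effects (8.64%). Requiring DEGs left 161, 16, 201 and 188, which in KO and Over were 1.7% and 0.17% of all transcripts. It left 0, 0, 1 and 2 of the 1, 2, 5 and 4 family transcripts called. Without a filter 302 were called in Over (1.55%), and 2 family transcripts in KO, where 6.26% of all transcripts were called. DESeq2 and limma-voom each called 1 family transcript in Over, that of *Sema7a*, where they called 1.84% and 1.68% of all transcripts. With 1 library left out, calls lay between 613 and 1271 in KO, 48 and 719 in Over, 882 and 1988 between the controls and 536 and 1126 in the difference, and family calls between 0 and 2, 0 and 6, 5 and 6, and 1 and 5. KO fell by over 1.5 times without KO replicate 2 (715) or KO-con replicate 1, 2 or 3 (613, 664 and 722), and the controls without KO-con replicate 1 (882) or Over-con replicate 1 (998). The difference fell likewise without KO-con replicate 1 (564), Over replicate 1 or 2 (541 and 536) or Over-con replicate 1 (556). Over fell to 55, 58, 48, 61 and 90 without Over replicates 1, 2 and 3 and Over-con replicates 1 and 2, and rose to 719 without Over-con replicate 3.

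Replicate numbers did not pair the libraries, since deviations of same-numbered libraries correlated at -0.152 to 0.0568. With the replicate block 837, 67, 1620 and 733 transcripts were called. In Over 1 family transcript was called beside 0.713% of all transcripts, and *Plxnc1* lost its call. *Farp1*, *Mapk3* and *Met* lost theirs in KO (adjusted p = 0.0981, 0.0674 and 0.0806, edgeR) and *L1cam* in Over (0.0524), and *Sema3c* and *Plxna3* gained one between the controls. Library totals in place of TMM factors split the calls into 703 higher and 449 lower in KO (551 and 564 with TMM) and 544 and 986 between the controls (753 and 763). Depth limits the 7 genes with several listed transcripts, and *Sema7a* and *Plxnc1* rest on 163 reads per library or fewer.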
